A study of Mus musculus with 8 samples.

Results

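The Slc25a genes encode the SLC25 family of carriers, most of which sit in the inner mitochondrial membrane and exchange metabolites between the matrix and the cytosol. They were taken as every row of the expression tables whose gene name is Slc25a followed by a number, which gave 47 of 49315 genes. Their messenger RNA was measured by RNA sequencing in 8 libraries from immortalized mouse embryonic fibroblasts, a cell line type grown in DMEM with 10% fetal bovine serum. Of these, 4 libraries are labelled Opa1-/-, from cells lacking the dynamin-like GTPase OPA1, and 4 are labelled Opa1-/- + OPA1, from cells of the same genotype with OPA1 put back. All 8 libraries thus carry the Opa1 deletion, and no wild-type group was analysed here. The number of clones, the promoter and species of the added OPA1, and whether the libraries came from separate cultures are not given in the sources used here. The p-values below therefore set the difference between the groups against the spread of these libraries within groups, which may be technical. The series title names genes linked to susceptibility to ferroptosis, an iron-dependent form of cell death, as its subject.

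Carriers of this family are built of membrane-spanning helices in similar repeats and mostly work as antiporters, moving one substrate in for another out. They are made in the cytosol and inserted into the inner membrane by the TIM22 translocase, without a cleaved leader in most cases. The ADP/ATP carriers and the phosphate carrier supply the ATP synthase, and other members carry the substrates of the malate-aspartate and citrate shuttles, fatty acid oxidation, cofactor supply, iron-sulfur cluster assembly and glutathione import. OPA1 fuses inner membranes and shapes cristae, the folds in which many of these carriers lie.

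Differences below are Opa1-/- minus Opa1-/- + OPA1 on the scale log2(scaled TPM + 1), so a positive value means a higher level in Opa1-/- cells. TPM, the deposited unit, is a level corrected for gene length and library size, and scaling set the libraries to a common level. A gene was called at an adjusted p below 0.05 from limma-trend fitted to all 14272 genes that passed a filter of 1 TPM in at least 4 libraries, with Benjamini-Hochberg adjustment. Recovered reads were 53.0 M to 56.3 M per Opa1-/- library (M, 1000000 reads) and 56.3 M to 57.7 M per Opa1-/- + OPA1 library. Mitochondrially encoded genes took 2.67% to 3.35% of the TPM in Opa1-/- libraries and 5.33% to 5.77% in Opa1-/- + OPA1 libraries. Of small and ribosomal RNA genes, only Gm23935, Gm24270, Gm42418 and Mir6236 were summed. They took 10.96% of the TPM in Opa1-/- library 3, against 14.93% to 15.53% in the other Opa1-/- libraries. In Opa1-/- + OPA1 library 3 they took 5.29%, against 13.6% to 14.21% in the others of that group. Results were therefore also computed without both libraries numbered 3. Across 9416 genes, which are not independent, the difference between the groups had a rank correlation of -0.21 with exon length.

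Total Opa1 mRNA did not separate the groups and so does not check the labels. It was 14.8, 14.7, 13.7 and 12.5 scaled TPM in the Opa1-/- libraries, against 15.6, 14.6, 14.5 and 14.5 in the Opa1-/- + OPA1 libraries. The difference was -0.09 (SE 0.06, 95% interval -0.22 to 0.05, adjusted p = 0.306 by limma). The fibroblast identity was checked on markers, and 8 of 8 fibroblast markers were above 1 TPM, with a summed level of 2693 to 2977 TPM in Opa1-/- and 3125 to 3192 TPM in Opa1-/- + OPA1 libraries. Of these 8 markers 4 were called lower and 1 higher in Opa1-/- cells. Of 5 epithelial markers, 3 were detected above 1 TPM, and their list summed to 176 to 213 TPM in Opa1-/- and 144 to 207 TPM in Opa1-/- + OPA1 libraries, with Krt8 and Cdh1 called higher. Most of that sum was Krt18, which averaged 170 TPM in Opa1-/- and 165 TPM in Opa1-/- + OPA1 libraries and was not called. Endothelial markers summed to 0.495 TPM at most, brown fat and muscle markers to 0.420 TPM at most with Myog at 0 throughout, and blood markers to 9.08 TPM at most. The neural list summed to 11.4 to 13.8 TPM in Opa1-/- and 18.0 to 20.7 TPM in Opa1-/- + OPA1 libraries, with Olig2 at 0 throughout and Sox2 and Gfap under 1 TPM. Nearly all of it was Tubb3, which averaged 12.4 TPM in Opa1-/- and 19.3 TPM in Opa1-/- + OPA1 libraries and was called lower. The part of these marker differences in the results on carriers was not tested, and in bulk RNA fewer cells of a type and less RNA per cell cannot be told apart.

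Of the 47 members, 40 passed the filter and were tested. In Opa1-/- cells 6 were called higher (Slc25a23, Slc25a20, Slc25a36, Slc25a11, Slc25a39 and Slc25a17) and 7 lower (Slc25a48, Slc25a14, Slc25a5, Slc25a30, Slc25a25, Slc25a15 and Slc25a51). That is 32.5% of the tested members, beside 33.0% of all tested genes, so the share called was near the background. Of the 7 called lower, 5 (Slc25a5, Slc25a14, Slc25a15, Slc25a30 and Slc25a51) no longer passed once the median difference of their chromosome was removed. By direction, 16.3% of all genes were called higher and 16.8% lower. The median difference of the tested members was 0.00, and that of all tested genes was -0.001. No member reached a difference of 1, and the 27 members not called lay between -0.17 and 0.22. The 4 libraries of each group did not overlap for 20 of the 40 tested members, 10 above and 10 below in Opa1-/- cells. Of all tested genes, 36.3% were without overlap, 17.4% above and 18.9% below.

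**Figure D1:**
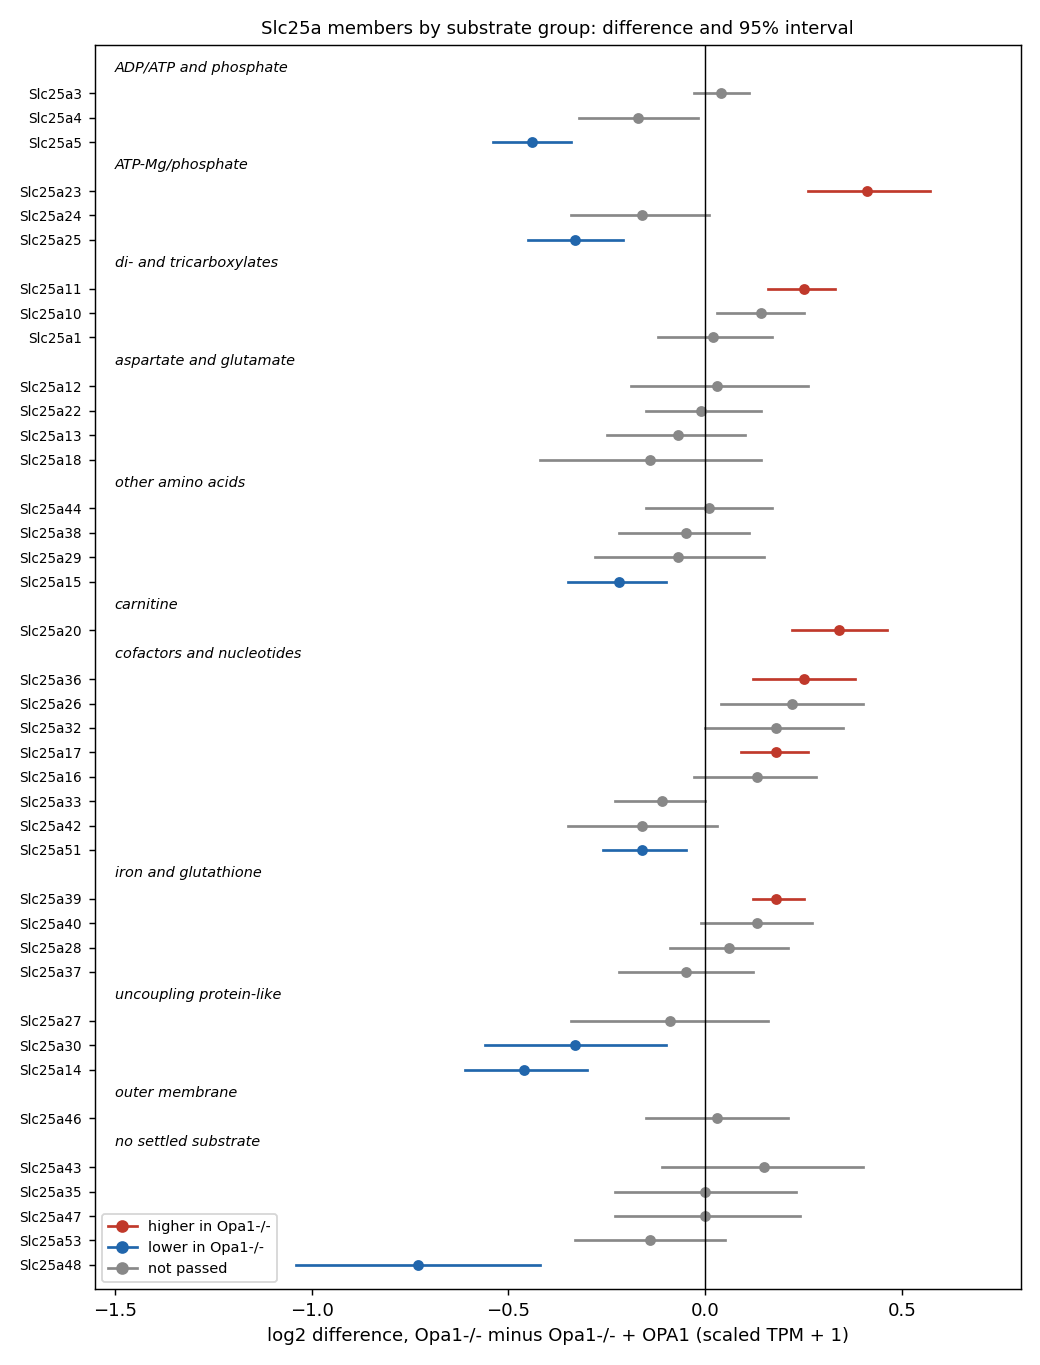
Difference of the tested Slc25a members, all but 1 of which are drawn, Opa1-/- minus Opa1-/- + OPA1, on log2(scaled TPM + 1), with the 95% confidence interval from limma, grouped by substrate. The 6 red members were called higher and the 7 blue members lower in Opa1-/- cells, and both directions occur in the ATP-Mg/phosphate group and the cofactor and nucleotide group.

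Upstream sequences are printed for Slc25a23 and Slc25a20, the members called higher with the largest differences, for Slc25a48, the member called lower with the largest difference, and for Slc25a5, the most abundant called member. They are RefSeq promoter windows of build GRCm38.p6, up to 250 bases before the transcription start, cut so that no annotated exon base is included. Slc25a23 lies on the minus strand at chr17:57059864-57060113, Slc25a20 on the plus strand at chr9:108661886-108662087, Slc25a48 on the plus strand at chr13:56438105-56438354 and Slc25a5 on the plus strand at chrX:36795347-36795596. Each is given 5′ to 3′ on the strand of the gene. Capitals mark matches, on either strand, to the GC box (GGGCGG), the CCAAT box (CCAAT) or the core of the antioxidant response element (TGACNNNGC).
Slc25a23: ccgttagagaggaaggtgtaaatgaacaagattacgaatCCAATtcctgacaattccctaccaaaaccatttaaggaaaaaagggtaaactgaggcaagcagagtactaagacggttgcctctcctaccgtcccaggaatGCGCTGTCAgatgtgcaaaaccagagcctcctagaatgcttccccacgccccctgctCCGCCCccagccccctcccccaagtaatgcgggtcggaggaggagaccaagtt
Slc25a20: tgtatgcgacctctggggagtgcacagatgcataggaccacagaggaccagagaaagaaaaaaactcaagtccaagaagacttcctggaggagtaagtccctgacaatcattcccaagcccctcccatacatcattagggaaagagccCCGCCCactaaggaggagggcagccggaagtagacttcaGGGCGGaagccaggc
Slc25a48: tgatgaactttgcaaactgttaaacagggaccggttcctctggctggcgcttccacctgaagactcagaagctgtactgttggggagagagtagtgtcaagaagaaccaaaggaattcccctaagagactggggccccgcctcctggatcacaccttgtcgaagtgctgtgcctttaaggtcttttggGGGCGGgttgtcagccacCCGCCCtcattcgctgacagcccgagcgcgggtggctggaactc
Slc25a5: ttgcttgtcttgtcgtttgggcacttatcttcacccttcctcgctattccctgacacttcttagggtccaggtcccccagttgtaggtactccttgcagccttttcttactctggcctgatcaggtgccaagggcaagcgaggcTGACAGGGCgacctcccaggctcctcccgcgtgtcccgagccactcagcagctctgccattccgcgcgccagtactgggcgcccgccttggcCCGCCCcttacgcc

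Of the 47 members, 36 had a RefSeq promoter entry. Motifs were counted in all 250 bases before its start, exon bases included, since cutting the exons would leave unequal lengths. The GC box was found in 24 of the 36, beside 32.9% of 27025 promoters. It was in 6 of 6 members called higher, 5 of 6 called lower, 10 of 19 not called and 3 of 5 not tested. The CCAAT box was found in 16 of the 36, beside 34.5% of all promoters. It was in 4 of 6 called higher, 2 of 6 called lower, 8 of 19 not called and 2 of 5 not tested. The antioxidant core occurred in 6 of the 36, beside 10.1%, and the members called with it were Slc25a23, higher, and Slc25a25 and Slc25a5, lower. The core of the ATF4 element (TGATGNAA) matched 0 of the 36, beside 3.53% of all promoters. The NRF1 motif matched 2, beside 3.86%, and the ERR site (AAGGTCA) matched 1, beside 4.05%. These counts describe the letters of those 250 bases on both strands, and for Slc25a25 all of them lie in annotated exons.

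By level, 6 members averaged at least 100 TPM over the 8 libraries, 22 lay between 10 and 100 TPM, 12 between 1 and 10 TPM and 7 below 1 TPM. Slc25a5, the ADP/ATP carrier ANT2 of dividing cells, was the most abundant at 921 TPM, 29.9% of the family sum. Slc25a4, the ADP/ATP carrier ANT1 best known from heart and muscle, followed at 712 TPM, and Slc25a3, the phosphate carrier, at 319 TPM. Slc25a24, Slc25a17 and Slc25a39 were next at 146, 145 and 112 TPM.

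The summed mRNA of the family was lower in each Opa1-/- library, and the difference lay mostly in the ADP/ATP carriers Slc25a5 and Slc25a4. The sum was 2892, 3029, 2797 and 2962 TPM in Opa1-/- libraries, against 3236, 3304, 3204 and 3231 TPM in Opa1-/- + OPA1 libraries, and the groups did not overlap. Its mean was 2920 ± 99.0 TPM in Opa1-/- and 3244 ± 42.4 TPM in Opa1-/- + OPA1 libraries (SD, n = 4 each). Without the ADP/ATP and phosphate carriers the sum was 1143 ± 39.5 TPM in Opa1-/- and 1115 ± 17.2 TPM in Opa1-/- + OPA1 libraries, and the groups overlapped. Slc25a3, Slc25a4 and Slc25a5 together made up 60.8 ± 1.82% of the family sum in Opa1-/- and 65.6 ± 0.417% in Opa1-/- + OPA1 libraries. These sums and shares were not tested. Slc25a5 lies on chromosome X and Slc25a4 on chromosome 8, where the median gene was lower in Opa1-/- cells (-0.36 and -0.18). With those medians removed, Slc25a5 differed by -0.08 and Slc25a4 by 0.01, and the sums were not computed that way.

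**Figure D2:**
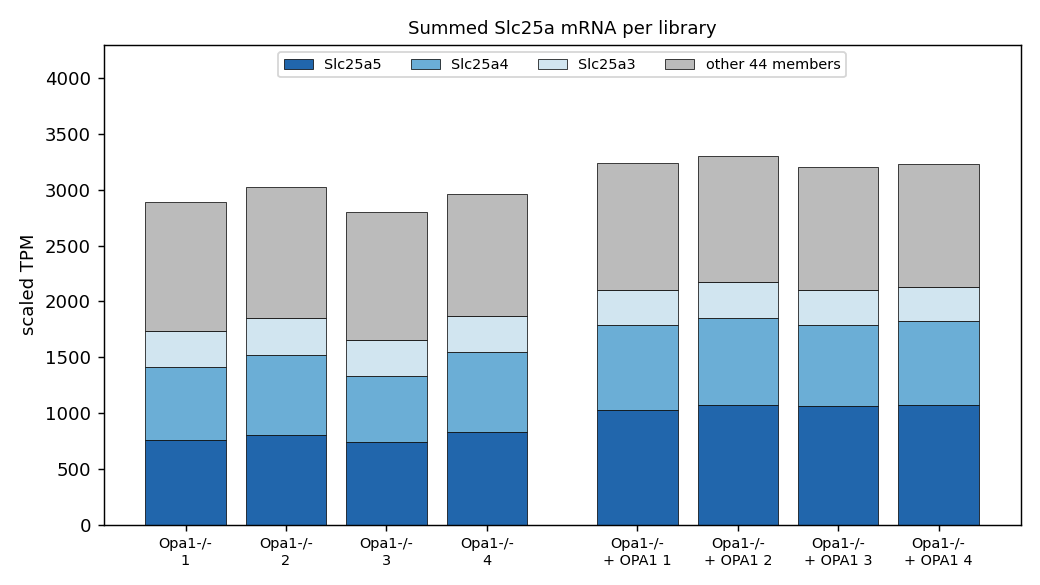
Summed scaled TPM of the 47 Slc25a members in each library, stacked as Slc25a5, Slc25a4, Slc25a3 and the other members. The Opa1-/- libraries reach 2797 to 3029 TPM and the Opa1-/- + OPA1 libraries 3204 to 3304 TPM, and the step between them lies mostly in the Slc25a5 segment.

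Among the ADP/ATP and phosphate carriers, 1 of 3 tested members was called, and it was lower. Slc25a5 was at 757, 802, 740 and 830 TPM in Opa1-/- libraries, against 1032, 1072, 1060 and 1071 TPM in Opa1-/- + OPA1 libraries. Every Opa1-/- library lay below every Opa1-/- + OPA1 library, with a difference of -0.44 (SE 0.05, adjusted p = 0.000181 by limma). Slc25a4 was at 653, 720, 589 and 720 TPM in Opa1-/- libraries, against 758, 781, 726 and 752 TPM in Opa1-/- + OPA1 libraries. These groups did not overlap by a small margin, and the difference of -0.17 did not pass (SE 0.07, adjusted p = 0.0735 by limma). With the replicate number as a block it did, with an adjusted p of 0.0395, and without Opa1-/- library 4 it was 0.0343. Without Opa1-/- library 3 the difference was -0.11 (0.111), and with the median of chromosome 8 removed it was 0.01 (0.957). The share of Slc25a5 in the ADP/ATP carrier sum was 53.9 ± 1.26% in Opa1-/- and 58.4 ± 0.789% in Opa1-/- + OPA1 libraries, without overlap. Slc25a3 averaged 323 ± 1.71 TPM in Opa1-/- and 315 ± 4.30 TPM in Opa1-/- + OPA1 libraries, and its difference of 0.04 did not pass (adjusted p = 0.372 by limma). With exon length and GC trends removed the Slc25a3 difference was 0.09 and passed (0.0383), and with chromosome medians removed it was -0.01 (0.866). Slc25a31, the testis ADP/ATP carrier ANT4, had 3 reads in Opa1-/- library 2 and was listed at 0 in the other 7 libraries, where a floor of 3 reads corresponds to 0.0728 to 0.0782 TPM. Of the Slc25a5 transcript, 33.8% of the 50-base words occur in 9 other genes, so reads may be split with them. The gene lies at chrX:36795651-36798807, plus strand, in the GENCODE M21 annotation of GRCm38. Its pseudogene Slc25a5-ps held 0.509 ± 0.110 TPM in Opa1-/- and 0.308 ± 0.146 TPM in Opa1-/- + OPA1 libraries.

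The ATP-Mg/phosphate carriers, calcium-regulated exchangers that set the adenine nucleotide content of the matrix, had 2 of 3 tested members called, in opposite directions, Slc25a23 higher and Slc25a25 lower. Slc25a23 was at 4.67, 4.36, 4.69 and 5.07 TPM in Opa1-/- libraries, against 3.26, 3.57, 3.11 and 3.16 TPM in Opa1-/- + OPA1 libraries. The groups were clearly apart, with a difference of 0.41 (SE 0.07, adjusted p = 0.00216 by limma). Slc25a25 was at 7.91, 8.0, 7.54 and 7.29 TPM in Opa1-/- libraries, against 10.4, 10.0, 9.70 and 9.52 TPM in Opa1-/- + OPA1 libraries. It was lower in every Opa1-/- library, by -0.33 (SE 0.05, adjusted p = 0.00167 by limma). Slc25a24, by far the most abundant of the group, was at 144, 150, 144 and 115 TPM in Opa1-/- libraries, against 157, 157, 152 and 151 TPM in Opa1-/- + OPA1 libraries. Opa1-/- library 4 stood low, and the difference of -0.16 did not pass (SE 0.08, adjusted p = 0.138 by limma), being -0.08 (0.0778) without that library. Slc25a23 made up 3.16 ± 0.569% of the group's sum in Opa1-/- and 1.95 ± 0.0975% in Opa1-/- + OPA1 libraries, without overlap. In the same annotation Slc25a23 lies at chr17:57043711-57059863, minus strand, and Slc25a25 at chr2:32414487-32451445, minus strand. Slc25a41 and Slc25a54 had at most 3 and 6 reads per library and were not tested. Slc25a25 overlaps Naif1 by 379 bases, and Slc25a23 overlaps Gm17168 by 168 bases, on the opposite strand, and whether counting used strand is not stated.

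Of the di- and tricarboxylate carriers, 1 of 3 tested was called, Slc25a11, the 2-oxoglutarate-malate exchanger of the malate-aspartate shuttle. It was at 96.6, 99.6, 97.5 and 93.5 TPM in Opa1-/- libraries, against 80.5, 85.0, 80.1 and 80.5 TPM in Opa1-/- + OPA1 libraries. The groups did not overlap, and the difference was 0.25 (SE 0.04, adjusted p = 0.00111 by limma). Slc25a10, the dicarboxylate carrier, which has also been discussed as a route for glutathione, averaged 74.0 ± 4.66 TPM in Opa1-/- and 67.0 ± 2.2 TPM in Opa1-/- + OPA1 libraries. Its difference of 0.14 missed the threshold (adjusted p = 0.0587 by limma) and passed with the replicate block (0.0340) and without Opa1-/- library 3 (0.0392) or 4 (0.0252). It was 0.08 (0.154) with exon length and GC trends removed and 0.10 (0.195) with chromosome medians removed. Slc25a1, the citrate carrier, averaged 57.1 ± 4.37 TPM in Opa1-/- and 56.1 ± 3.70 TPM in Opa1-/- + OPA1 libraries, a difference of 0.02 (95% interval -0.12 to 0.17). Slc25a21, the 2-oxoadipate carrier, had 3 to 8 reads in Opa1-/- and 0 to 4 reads in Opa1-/- + OPA1 libraries and was not tested. Slc25a11 lies at chr11:70644196-70647479, minus strand, and shares 189 bases with Rnf167 on the opposite strand.

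No aspartate or glutamate carrier was called by limma, 0 of 4 tested, and 0 of 4 had an unadjusted p below 0.05. Slc25a13, the aspartate-glutamate carrier citrin and the most abundant of them, was at 58.0, 58.6, 57.4 and 45.6 TPM in Opa1-/- libraries, against 59.1, 57.6, 57.0 and 56.2 TPM in Opa1-/- + OPA1 libraries. Only Opa1-/- library 4 stood apart, and the difference was -0.07 (SE 0.08, adjusted p = 0.509 by limma). Its paralogue Slc25a12, aralar, averaged 12.9 ± 2.01 TPM in Opa1-/- and 12.4 ± 0.196 TPM in Opa1-/- + OPA1 libraries. Opa1-/- library 4 was low for it too, at 9.87 TPM, and without that library its difference was 0.15 (adjusted p = 0.0137 by limma), beside 0.03 with it. Slc25a22, a glutamate-proton symporter, differed by -0.01 (95% interval -0.15 to 0.14) and Slc25a18, its paralogue, by -0.14 (95% interval -0.42 to 0.14).

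Of the other amino acid carriers, 1 of 4 tested was called. Slc25a15, the ornithine carrier of the urea cycle, was at 9.79 to 10.8 TPM in Opa1-/- and 11.8 to 13.2 TPM in Opa1-/- + OPA1 libraries, with a difference of -0.22 (SE 0.06, adjusted p = 0.0137 by limma). On the TPM as deposited its adjusted p was 0.0930, and without both libraries numbered 3 it was 0.0515. Slc25a44, a carrier of branched-chain amino acids and the most abundant here, was at 28.1, 25.2, 24.5 and 21.7 TPM in Opa1-/- libraries, against 24.6, 23.7, 25.7 and 24.5 TPM in Opa1-/- + OPA1 libraries. The groups overlapped, with a difference of 0.01 (95% interval -0.15 to 0.17). Slc25a38, tied to glycine import for heme synthesis, differed by -0.05 and Slc25a29, a carrier of basic amino acids, by -0.07, and neither passed. Slc25a2, a paralogue of the ornithine carrier, had 3 to 10 reads per library and was not tested.

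Slc25a20, the carnitine-acylcarnitine carrier that brings long-chain fatty acids in for oxidation, was called higher in Opa1-/- cells. It was at 17.8, 18.3, 16.2 and 17.9 TPM in Opa1-/- libraries, against 13.1, 13.5, 14.3 and 13.6 TPM in Opa1-/- + OPA1 libraries. Every Opa1-/- library lay above every Opa1-/- + OPA1 library, with a difference of 0.34 (SE 0.05, adjusted p = 0.00122 by limma). It is the single member of its group and lies at chr9:108662088-108684641, plus strand.

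The cofactor and nucleotide carriers had 3 of 9 tested members called, 2 higher and 1 lower, and a median difference of 0.16. Slc25a17, a carrier of coenzyme A, FAD and NAD in the peroxisomal rather than the mitochondrial membrane, was at 152, 162, 152 and 152 TPM in Opa1-/- libraries, against 140, 136, 137 and 133 TPM in Opa1-/- + OPA1 libraries. The groups did not overlap, and the difference was 0.18 (SE 0.04, adjusted p = 0.00585 by limma). On the TPM as deposited, without scaling, its adjusted p was 0.0613. Slc25a36, a pyrimidine nucleotide carrier, was at 15.8, 15.3, 14.8 and 16.6 TPM in Opa1-/- libraries, against 14.0, 13.4, 12.2 and 12.4 TPM in Opa1-/- + OPA1 libraries. The groups did not overlap, with a difference of 0.25 (SE 0.06, adjusted p = 0.0101 by limma). Its paralogue Slc25a33 averaged 25.7 ± 1.61 TPM in Opa1-/- and 27.8 ± 0.999 TPM in Opa1-/- + OPA1 libraries and did not pass (0.0409 without Opa1-/- library 3). Of its transcript, 12.62% of the 50-base words occur in another gene. The share of Slc25a36 in the sum of both was 37.9 ± 2.39% in Opa1-/- and 31.9 ± 1.96% in Opa1-/- + OPA1 libraries, without overlap.

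Slc25a51, the carrier that brings NAD into the matrix, was at 19.0 to 20.6 TPM in Opa1-/- and 21.4 to 23.4 TPM in Opa1-/- + OPA1 libraries. It was lower by a small margin, -0.16 (SE 0.05, adjusted p = 0.0285 by limma), and no longer passed with the replicate block (0.0603). Leaving out Opa1-/- library 2 gave 0.0657, and leaving out Opa1-/- + OPA1 library 2 or 4 gave 0.0825 or 0.0771. It overlaps Gm25692 by 125 bases on the same strand. No gene named Slc25a52, also listed for this group, occurs among the 49315 genes. Slc25a32, tied to folate and FAD import, differed by 0.18 (adjusted p = 0.117 by limma) and passed with the replicate block (0.0280) and without Opa1-/- library 4 (0.00944). Slc25a26, which carries S-adenosylmethionine, differed by 0.22 (adjusted p = 0.0623 by limma, 0.0436 without Opa1-/- + OPA1 library 1). Of the remaining differences, none of which passed in all 8 libraries, those of coenzyme A-linked carriers were 0.13 for Slc25a16 (adjusted p = 0.0398 by limma without Opa1-/- library 4) and -0.16 for Slc25a42.

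The carriers of iron and glutathione, closest to the subject in the series title, had 1 of 4 tested members called. Slc25a39, needed for glutathione import into mitochondria, was at 118, 122, 118 and 120 TPM in Opa1-/- libraries, against 103, 106, 105 and 106 TPM in Opa1-/- + OPA1 libraries. The libraries of each group lay close together and did not overlap, with a difference of 0.18 (SE 0.03, adjusted p = 0.00194 by limma). The gene lies at chr11:102402985-102407946, minus strand. Its paralogue Slc25a40 averaged 6.35 ± 0.410 TPM in Opa1-/- and 5.71 ± 0.195 TPM in Opa1-/- + OPA1 libraries, a difference of 0.13 that did not pass (adjusted p = 0.131 by limma). With exon length and GC trends removed the Slc25a40 difference was 0.23 and passed (0.0304), and with chromosome medians removed it was 0.07 (0.437). Slc25a39 made up 94.9 ± 0.334% of the pair's sum in Opa1-/- and 94.8 ± 0.115% in Opa1-/- + OPA1 libraries. Of the iron importers, Slc25a28, mitoferrin-2, was the more abundant at 52.2 ± 4.22 TPM in Opa1-/- and 49.9 ± 3.16 TPM in Opa1-/- + OPA1 libraries. Slc25a37, mitoferrin-1, known from developing red cells, averaged 16.2 ± 1.62 TPM in Opa1-/- and 16.8 ± 1.09 TPM in Opa1-/- + OPA1 libraries. Their differences were 0.06 (95% interval -0.09 to 0.21) and -0.05 (95% interval -0.22 to 0.12).

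The uncoupling protein-like carriers had 2 of 3 tested members called, both lower. Slc25a30, also named kidney mitochondrial carrier protein, was at 60.0, 54.4, 62.4 and 43.0 TPM in Opa1-/- libraries, against 70.2, 67.8, 67.5 and 68.6 TPM in Opa1-/- + OPA1 libraries. Opa1-/- libraries were spread and lay below all others, with a difference of -0.33 (SE 0.10, adjusted p = 0.0343 by limma). Leaving out Opa1-/- library 2 gave 0.0708, leaving out any Opa1-/- + OPA1 library gave 0.0663 to 0.0774, and without Opa1-/- library 4, the lowest, its difference was -0.21 (0.00827). Slc25a14, also named UCP5, was at 11.0, 10.8, 10.7 and 8.94 TPM in Opa1-/- libraries, against 15.0, 14.0, 14.0 and 15.2 TPM in Opa1-/- + OPA1 libraries. The groups were well apart, with a difference of -0.46 (SE 0.07, adjusted p = 0.00119 by limma). Slc25a30 lies at chr14:75760117-75787037, minus strand, and Slc25a14 at chrX:48623413-48662294, plus strand. Slc25a27, also named UCP4, averaged 7.44 ± 1.30 TPM in Opa1-/- and 7.94 ± 0.588 TPM in Opa1-/- + OPA1 libraries and did not pass. Of the family members under other names, Ucp2, Mtch1 and Mtch2, 0 of 3 tested were called by limma, 1 had an unadjusted p below 0.05, and Ucp1 and Ucp3 were below the filter.

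Slc25a46, which lies in the outer membrane and, like OPA1, is known for its part in mitochondrial shape, did not differ beyond the spread. It was at 36.4, 38.3, 34.1 and 28.9 TPM in Opa1-/- libraries, against 32.7, 32.2, 34.8 and 34.1 TPM in Opa1-/- + OPA1 libraries. The groups overlapped, with a difference of 0.03 (SE 0.08, 95% interval -0.15 to 0.21, adjusted p = 0.785 by limma).

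Among the 7 members listed without a settled substrate, 5 were tested and 1 was called. Slc25a48, which human work has since tied to choline import, had the largest absolute difference of the 40 tested members. It was at 2.83, 1.77, 1.97 and 2.03 TPM in Opa1-/- libraries, against 4.94, 4.93, 3.65 and 3.42 TPM in Opa1-/- + OPA1 libraries. The groups did not overlap, and both were at low levels, resting on 108 to 172 reads in Opa1-/- and 215 to 318 reads in Opa1-/- + OPA1 libraries. The difference was -0.73 (SE 0.14, adjusted p = 0.00397 by limma), and it was -0.95 with a pseudocount of 0.1. The gene lies at chr13:56438355-56474239, plus strand. Slc25a47, known from liver and the most abundant of these, was at 8.80, 10.1, 8.47 and 11.7 TPM in Opa1-/- libraries, against 10.9, 9.35, 9.91 and 8.61 TPM in Opa1-/- + OPA1 libraries. The groups overlapped fully, with a difference of 0.00 (95% interval -0.23 to 0.24). Slc25a35, Slc25a43 and Slc25a53 lay between -0.14 and 0.15 and did not pass. Slc25a35 overlaps Rangrf by 1151 bases on the opposite strand, and 25.05% of its 50-base words occur in 6 other genes. Slc25a34 had at most 3 reads per library and Slc25a45 31 to 56 reads in Opa1-/- and 37 to 45 reads in Opa1-/- + OPA1 libraries, and neither was tested.

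**Figure D3:**
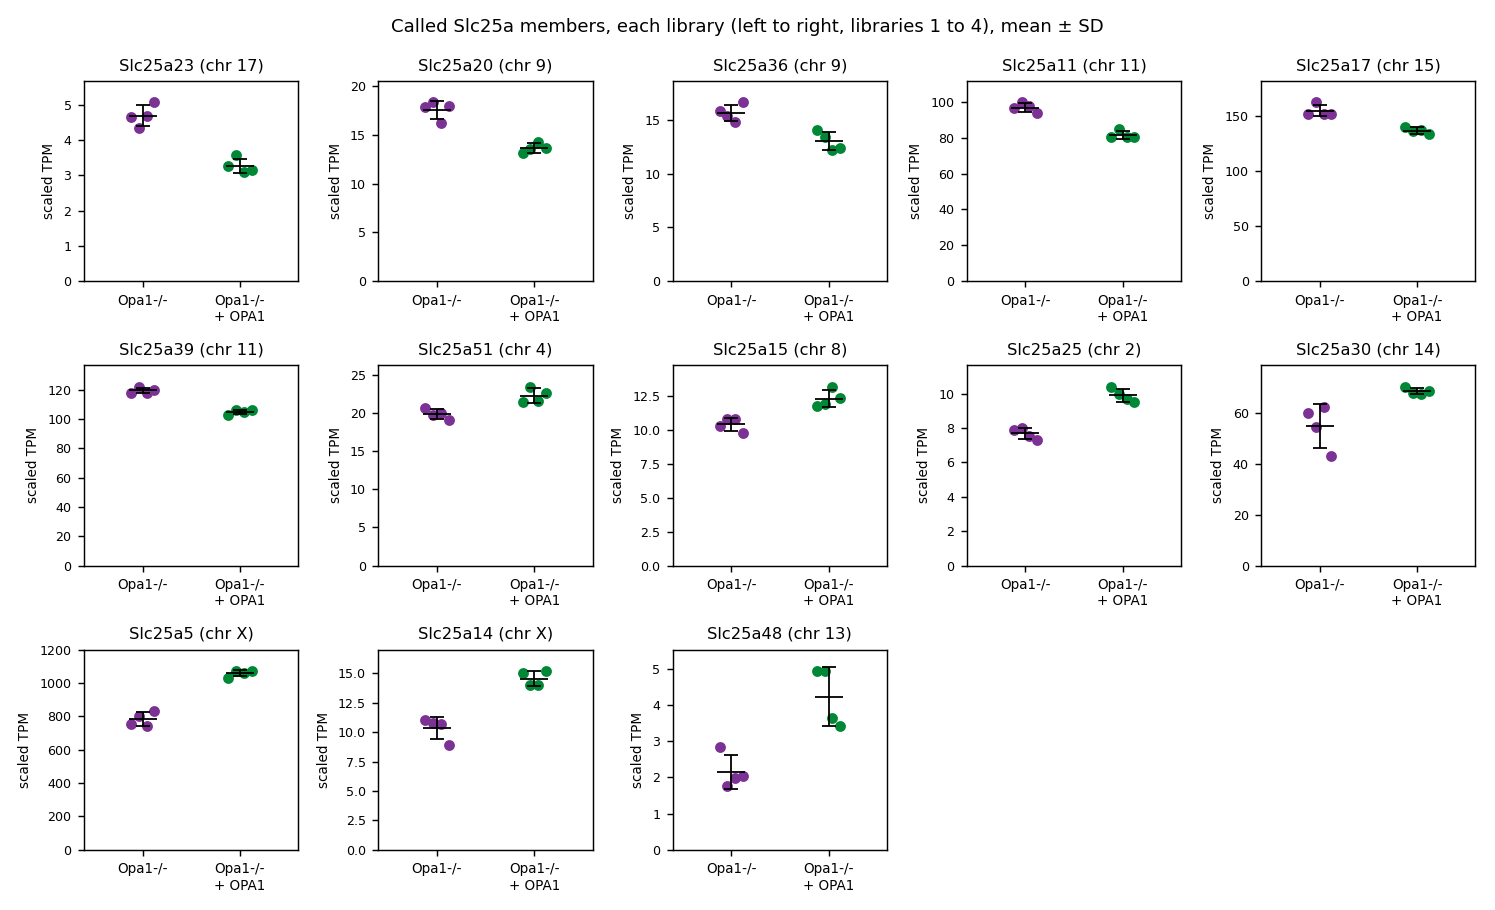
Scaled TPM of the 13 called Slc25a members in each library (points, libraries 1 to 4 from left to right) with mean and SD, Opa1-/- left of Opa1-/- + OPA1. The libraries of both groups do not overlap in any panel, and Slc25a48 shows the largest difference, at 1.77 to 2.83 TPM in Opa1-/- and 3.42 to 4.94 TPM in Opa1-/- + OPA1 libraries.

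Several members called lower lie on chromosomes whose median gene was lower in Opa1-/- cells. The median difference was -0.36 over 301 genes of chromosome X, -0.18 over 524 genes of chromosome 8, -0.17 over 299 genes of chromosome 14 and -0.15 over 578 genes of chromosome 4, while it was 0.11 on chromosome 7 and 0.10 on chromosome 9. Slc25a5, Slc25a14, Slc25a43 and Slc25a53 are the 4 X-linked members. With the median of its chromosome removed, Slc25a5 differed by -0.08 (adjusted p = 0.231 by limma) and Slc25a14 by -0.10 (0.319). On the same footing Slc25a30 on chromosome 14 differed by -0.16 (0.268), Slc25a15 on chromosome 8 by -0.04 (0.600) and Slc25a51 on chromosome 4 by -0.01 (0.878). Slc25a25 and Slc25a48 were then the 2 members called lower, beside 7 called higher. Slc25a4 on chromosome 8, not called before, was at 0.01 (0.957). Slc25a36 on chromosome 9 no longer passed (0.15, adjusted p = 0.0818 by limma), and Slc25a26 (0.25, 0.0448) and Slc25a43 (0.50, 0.00943) newly passed. The medians were taken over genes of higher level and removed in full from every gene. Slc25a43 averaged only 1.75 TPM, where the added 1 TPM shrinks differences, so its value of 0.50 can be overcorrected.

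Slc25a43 and Slc25a5 are neighbours on chromosome X, 18449 bases apart. Beside the lower level of Slc25a5 in Opa1-/- cells, Slc25a43 was at 1.65 to 2.10 TPM in Opa1-/- and 1.24 to 1.94 TPM in Opa1-/- + OPA1 libraries, and its difference of 0.15 did not pass (adjusted p = 0.361 by limma). The difference between both neighbours was not tested. The other neighbouring pairs, within 6462 bases, were Slc25a29 and Slc25a47 on chromosome 12, Slc25a41 and Slc25a23 on chromosome 17, and Slc25a54 and Slc25a24 on chromosome 3.

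**Figure D4:**
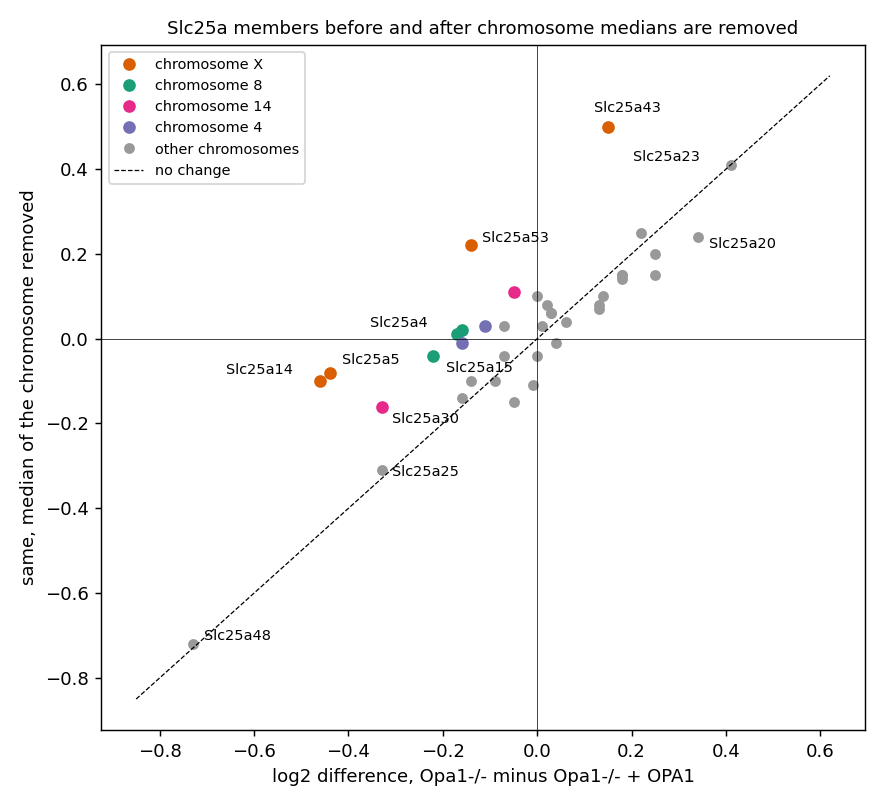
Difference of the tested members, all but 1 of which are drawn, Opa1-/- minus Opa1-/- + OPA1, on log2(scaled TPM + 1) (x axis) against the same difference with the median of its chromosome removed (y axis). Members on chromosomes X, 8, 4 and 14 lie above the line of no change, while Slc25a48 and Slc25a25 stay close to it at -0.72 and -0.31.

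The genes that insert the carriers or use what they carry were read from lists. Their counts stand beside the 16.3% of all genes called higher and 16.8% called lower, 33.0% in all. These lists were chosen with earlier results of these data known, so their shares do not measure enrichment. Of 13 genes of the TIM22 import route, 1 was called higher and 2 lower, 23.1% in all. With the replicate block 3 were higher and 2 lower, Timm8b (0.28, adjusted p = 0.0280 by limma) and Tomm22 (0.13, 0.0441) being added. Timm13, a small intermembrane-space chaperone, differed by 0.19 (adjusted p = 0.0344 by limma), and its adjusted p was between 0.0597 and 0.0949 when Opa1-/- library 1 or 2 or Opa1-/- + OPA1 library 1, 3 or 4 was left out. Timm8a1, its X-linked partner, differed by -0.33 (0.00133) and Tomm20, an outer membrane import receptor on chromosome 8, by -0.19 (0.00601). With chromosome medians removed these were 0.15 (0.10), 0.03 (0.671) and -0.01 (0.841), and none passed.

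Of 11 other inner membrane transporters, 3 were called higher and 3 lower, 54.5% in all beside 33.0% of all genes. Sfxn5, a sideroflexin, was at 5.62 to 6.03 TPM in Opa1-/- and 3.37 to 4.17 TPM in Opa1-/- + OPA1 libraries, with a difference of 0.56 (SE 0.07, adjusted p = 0.000498 by limma). The ABC transporters Abcb8 and Abcb10 went opposite ways, with 0.47 (0.000767) and -0.46 (0.000478).

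Of 13 enzymes of the malate-aspartate and citrate shuttles, 4 were called higher and 3 lower, 53.8% beside 33.0% of all genes. Me1, the cytosolic malic enzyme, was at 83.9 to 92.8 TPM in Opa1-/- and 71.7 to 73.5 TPM in Opa1-/- + OPA1 libraries, a difference of 0.29 (adjusted p = 0.000626 by limma). Me2, a mitochondrial malic enzyme, was at 110 to 128 TPM in Opa1-/- and 145 to 154 TPM in Opa1-/- + OPA1 libraries, a difference of -0.30 (0.00202). Got2, the mitochondrial aspartate aminotransferase on chromosome 8, differed by -0.23 (0.00292), and by -0.05 (0.379) with chromosome medians removed.

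Of 12 genes listed around mitochondrial iron, heme and glutathione, 3 were called higher and 2 lower, 41.7% beside 33.0% of all genes. With the replicate block 4 were higher, Alas1 being added, and 2 lower. The 2 called lower were Glrx5 (-0.24) and Afg3l2 (-0.14). With chromosome medians removed these were -0.14 (adjusted p = 0.195 by limma) and -0.11 (0.123). Neither then passed, while the 3 called higher still did. Iscu and Nfs1, the scaffold and the sulfur donor of iron-sulfur cluster assembly, differed by 0.30 (adjusted p = 0.00677 by limma) and 0.29 (0.00391). Gpx4, the glutathione peroxidase that removes lipid peroxides and is central to ferroptosis, was at 455 to 517 TPM in Opa1-/- and 385 to 431 TPM in Opa1-/- + OPA1 libraries, a difference of 0.24 (0.00741).

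Of 16 tested genes of cofactor pathways, 6 were called higher and 3 lower, 56.2% beside 33.0% of all genes, with a median difference of 0.16. With the replicate block 5 were higher and 2 lower, as Nmnat3 (0.0532) and Pank1 (0.0753) no longer passed. The 3 called lower were Mat2a (-0.24), Pank3 (-0.23) and Pank1 (-0.22). With chromosome medians removed these still passed, while Mat2b (adjusted p = 0.0715 by limma), Mthfd1l (0.0909) and Nmnat3 (0.207), called higher before, did not. The largest absolute differences were in mitochondrial folate enzymes. Aldh1l2 was at 27.4 to 51.9 TPM in Opa1-/- and 10.8 to 16.1 TPM in Opa1-/- + OPA1 libraries, a difference of 1.46 (SE 0.19, adjusted p = 0.000524 by limma). Mthfd2 differed by 0.70 (0.000831) and Shmt2 by 0.64 (0.000274). Slc25a32, the folate carrier named above, differed by 0.18 and did not pass in the same fit.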

How the data were processed

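RNA of 8 libraries was analysed, 4 labelled Opa1-/- and 4 labelled Opa1-/- + OPA1. RNeasy Plus and NEBNext Ultra II kits were used, per the labels' protocols. The submitters' processing notes list the tools STAR 2.5.2b, bcl2fastq 2.17, Subread 1.5.2 and featureCounts, and the builds mm10 and GRCh38. The authors deposited TPM, per the file headers, which sum to 1000000 per library.

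TPM were scaled by an unweighted trimmed mean of log ratios (trims of 30% and 5%) and tested as log2(TPM + 1) with limma-trend 3.58.1 in R 4.3.3, two-sided, Benjamini-Hochberg adjusted over 14272 genes (at least 4 libraries with 1 TPM or more). The fit was tested on simulated data. Python 3.11.15 did the rest. Reads were recovered from the steps of TPM times exon length (GENCODE M21, GRCm38), where 94.7% to 95.1% of low values were whole within 0.05 of a read; they give depth only, and the read floors cover counting error only. Over 9416 genes, deviations of same-numbered libraries correlated at 0.25, 0.22, 0.32 and 0.12, and those of differently numbered libraries at -0.32 to 0.11. The reported fit did not pair libraries. A fit with the replicate number as a block was run as an alternative.

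Members with an absolute difference of at least 0.25 when called, and the most abundant of each substrate group, are given per library. The values of 1 tested member and of some listed genes are not reported here. Of the partner lists, up to 3 called genes are described, and some others are named beside the counts. The members and lists were chosen with earlier results of these data known. Alternatives covered scaling, pseudocount, filter, replicate block, libraries left out, chromosome medians, length and GC trends, and protein-coding genes only.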

Additional observations from a re-analysis of the deposited data

Results flagged for a closer look

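Within each group of 4 libraries, the library at an end of the range was compared with its nearest neighbour, as a share of the whole range, for the 40 tested members. Of 80 such groups 7 were above Dixon's critical value for 4 samples, and chance flags about 1 in 20. In Opa1-/- cells, library 4 was the lowest for Slc25a12 (gap share 0.906, 9.87 TPM, the nearest 13.7 TPM), for Slc25a13 (0.909, 45.6 TPM, the nearest 57.4 TPM) and for Slc25a14 (0.852, 8.94 TPM, the nearest 10.7 TPM). Opa1-/- library 2 was the highest for Slc25a17 (0.972, 162 TPM, the nearest 152 TPM), and Opa1-/- library 1 the highest for Slc25a53 (0.833, 1.97 TPM, the nearest 1.74 TPM). In Opa1-/- + OPA1 cells, library 2 was the highest for Slc25a11 (0.916, 85.0 TPM, the nearest 80.5 TPM) and the lowest for Slc25a12 (0.887, 12.1 TPM, the nearest 12.5 TPM). The rank correlation of a library's deviation from its group with exon length, across 9416 genes that are not independent, was -0.46 in Opa1-/- library 4 and 0.35, -0.08 and 0.47 in Opa1-/- libraries 1 to 3. In Opa1-/- + OPA1 libraries 1 to 4 it was 0.05, -0.27, 0.24 and -0.04. Its part in these gaps was not tested.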

How the results depend on the processing

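Of the 13 called members, 6 (Slc25a11, Slc25a20, Slc25a23, Slc25a25, Slc25a39 and Slc25a48) were called in each of the 20 alternatives in which they were tested, Slc25a23 and Slc25a48 not being tested with a filter of 5 TPM. Of the 27 others, 10 passed in at least 1 alternative. Among the members 0 calls changed sign, 23 values no longer passed and 27 newly did. With chromosome medians removed, 2 members and 1588 of all genes were called lower, against 2392 genes in the reported fit, and Timm8a1 turned to 0.03. With length and GC trends removed, 10 members were called higher. On the deposited TPM, 1529 genes were called lower. Leaving out each library in turn gave 6 to 10 members higher and 5 to 8 lower, and 1726 to 2572 genes higher and 1795 to 2730 lower; the upper ends came without Opa1-/- library 4. On the deposited TPM, the adjusted p was 0.0779 for Slc25a30 and 0.119 for Slc25a51. Timm13 also missed the threshold with median of ratios scaling (0.0517), with no filter (0.0762) and with length and GC trends removed (0.140). The cause was not tested. With the replicate block, 8 members were higher and 7 lower, and 2362 genes were higher and 2395 lower; beyond the members named above it changed no other member's call. The summed TPM of the family differed by -324, and by -283 to -360 on the deposited TPM, without both libraries numbered 3 and without each library in turn, the alternatives run on it. It was not computed with chromosome medians removed, where Slc25a5 differed by -0.08 and Slc25a4 by 0.01. Without whole counts, the spread between libraries sets the precision, and members under 1 TPM rest on few reads.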
